A study of Mus musculus with 2 samples.

Results

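A set of 10 genes of the NRF2 antioxidant system were followed in mouse cells labelled as lymphoma. They are Nfe2l2, which encodes the transcription factor NRF2, its inhibitor Keap1, and 8 target genes, Nqo1, Hmox1, Gclc, Gclm, Srxn1, Txnrd1, Gsr and Cbr3. The genes were selected on an earlier reading of the same values, in which Nqo1, Hmox1 and Gclc stood out, so the differences below are a description and support nothing further. Every probe set annotated with exactly 1 of the 10 symbols was taken, which gave 20 probe sets, and the 10 genes were 10 of 18194 genes with a probe set. The study has 2 samples, each read on 1 array. In the first, cells labelled as lymphoma were grown in medium that held serum, and in the second, cells with that label grew together with endothelial cells, the lining cells of blood vessels. The labels name no strain, genotype, lymphoma line, endothelial source or culture time, and do not state the medium of the co-culture or whether the cell types were parted before RNA was taken. There are no replicates, so no difference has a test and no p-value is given.

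NRF2 is made continuously in most cells, and KEAP1 holds it and passes it to a CUL3 ubiquitin ligase, which marks it for destruction. When electrophiles or oxidants modify KEAP1, NRF2 builds up, pairs with a small MAF protein and binds antioxidant response elements near genes that make and recycle glutathione and thioredoxin and that detoxify quinones and haem. In tumours this system is known for its part in resistance to oxidative stress and drugs. Control of NRF2 acts largely on the protein, which arrays of RNA do not measure.

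The 8 target genes were higher on the co-culture array by all 16 of their probe sets, while Nfe2l2 and Keap1 lay close to equal. By the brightest probe set of each gene, Nqo1 was 3.63-fold higher, Cbr3 3.49-fold, Hmox1 3.29-fold and Gclc 2.13-fold. Srxn1, Gclm, Gsr and Txnrd1 had ratios between 1.83 and 1.29, within 2-fold. A gene was taken as measured if that probe set exceeded 44.3, the floor, in either culture, and a change of 2-fold, a log2 difference of 1, was the limit for higher or lower. All 10 genes were measured, and 4 of them were at least 2-fold higher and 0 lower. Among all 11560 measured genes, 4.52% passed 2-fold on the higher side and 9.97% on the lower side. The 10 genes had a median log2 difference, co-culture minus serum culture, of 0.84, against -0.06 over all measured genes. Since the genes were chosen for these differences, nothing is read from the gap.

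The error that 2 arrays can show is the disagreement between probe sets of a gene. Their log2 differences had a pooled within-gene SD of 0.57 over 3943 genes whose probe sets averaged 200 or more in intensity, and of 0.67 over 1537 dimmer genes. This SD covers error that differs between probe sets of a gene, and takes in real differences between its transcripts. It leaves out error shared by a whole array and the spread between cultures. Both arrays had the same mean of 500 after trimming 2% of values at each end, but medians of 36.9 and 50.7. Bacterial control transcripts spiked into the hybridisation read 1.14-fold brighter on the co-culture array. Scaling to these spikes gave 328 higher and 1576 lower genes in place of 523 and 1152, a share higher of 17.2% against 31.2%, and moved the median of all measured genes from -0.06 to -0.26. It lowers each log2 difference of values above the floor by 0.19, so differences below between 0 and 0.19 turn sign under it. The ratio of 3′ to 5′ signal of beta-actin, a sign of how intact the RNA was, was 3.56 in serum culture against 2.05 in co-culture. For Gapdh it was 2.54 and 1.88, and for the transferrin receptor Tfrc 13.2 and 5.03. With 1 array per culture, RNA length, array and culture cannot be told apart.

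Markers of the labelled cells were checked on the same arrays. Of 13 B-lineage markers with a probe set 6 were measured. The highest intensity on either array was 161, and the summed intensity of the 13 was 471 and 504. Blk and Ighm passed 2-fold in opposite directions, Blk with 27.0 in serum culture and 126 in co-culture and Ighm with 103 and 7.24. These B-lineage markers do not bear out a B cell identity. Ptprc, which encodes CD45, a surface protein of lymphoid and other white blood cells, was below the floor on both arrays. It therefore does not bear out another lymphoid identity either, and the samples are called by their labels. Of 20 endothelial markers 17 were below the floor on both arrays. Among them were Pecam1 (21.3 and 18.4 in serum culture and co-culture), Kdr (19.5 and 38.4) and Cdh5 (19.6 and 44.1). Of the 3 measured, Flt1 (93.3 and 26.4) was the only one past 2-fold, at least 2.11-fold lower in co-culture. The summed endothelial signal was 859 and 988, most of it from Egfl7 (473 and 532), where Egfl7 encodes a protein secreted by endothelial cells. The other measured Egfl7 probe sets had log2 differences from -0.52 to 0.24. Macrophage and granulocyte markers (3 of 17 measured, summed 310 and 417) and fibroblast markers (5 of 14, summed 405 and 494) reached at most 87.6 and 92.2. With the floor applied none passed 2-fold. The largest differences were those of Adgre1 (7.39 and 65.9), Csf3r (66.1 and 40.6), Pdgfra (92.2 and 57.4) and Dcn (33.3 and 64.3). Of 7 erythroid markers, summed 128 and 702, 2 were measured and went opposite ways: Slc4a1, the red cell anion exchanger (11.0 and 642), and Klf1, an erythroid transcription factor (85.8 and 6.90). Their part in the haem-related differences was not tested. In RNA from mixed cells, fewer cells of a type and less RNA per cell cannot be told apart.

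NRF2 binds the antioxidant response element, whose core letters TGACNNNGC were sought on both strands of RefSeq promoter windows of GRCm38.p6, from 250 bases before to 50 bases after a transcript start. These windows matched 7 of the 10 genes, with 9 windows in all. Hmox1, Gclc and Gsr were not matched. The letters stood in 4 of the 9 windows, those of Srxn1, Gclm and Nfe2l2 and 1 of 3 for Txnrd1, and in 12.4% of 32851 windows of all genes. Also sought, the last added after the first search, were TGANTCA, the letters of an AP-1 site, found in 7.81% of all windows, and TGAGNNNGC, found in 17.6%. Both occurred among the members in Srxn1 alone, and TGANTCA overlaps the other motifs, as in TGAGTCAGC. A match describes letters and is no evidence of binding. The stretches are shown because they hold the members' matches upstream of a start, which are in capitals, also where the match reads on the opposite strand.
Srxn1, 250 bases up to the start, chr2:152105274-152105523, plus strand: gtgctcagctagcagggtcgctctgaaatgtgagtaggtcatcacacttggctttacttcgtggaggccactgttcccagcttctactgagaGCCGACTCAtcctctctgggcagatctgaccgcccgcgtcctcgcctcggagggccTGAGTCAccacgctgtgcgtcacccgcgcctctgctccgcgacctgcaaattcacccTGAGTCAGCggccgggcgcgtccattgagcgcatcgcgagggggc
Gclm, 170 to 100 bases before the start, chr3:122245387-122245456, plus strand: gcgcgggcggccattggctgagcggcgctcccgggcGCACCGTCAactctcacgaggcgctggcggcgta
Txnrd1, 130 to 60 bases before the second of 3 annotated starts, chr10:82859076-82859145, plus strand: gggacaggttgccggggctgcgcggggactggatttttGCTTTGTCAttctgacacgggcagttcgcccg
Nfe2l2, 250 to 180 bases before the start, chr2:75704844-75704913, minus strand: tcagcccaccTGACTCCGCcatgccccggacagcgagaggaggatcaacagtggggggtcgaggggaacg
In Srxn1, 158 bases before the start, TGAGTCGGC reads on the opposite strand, TGAGTCA lies at 102 bases and TGAGTCAGC at 45 bases. A further match of TGACNNNGC, TGACCTAGC on the opposite strand, begins 28 bases past that start and is not shown. Gclm holds TGACGGTGC and Txnrd1 TGACAAAGC, both on the opposite strand, at 134 and 92 bases. The Nfe2l2 match, TGACTCCGC at 240 bases, belongs to the gene whose own RNA differed least, and the windows of Nqo1, Cbr3 and Keap1 hold none of the 3 motifs.

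**Figure D1:**
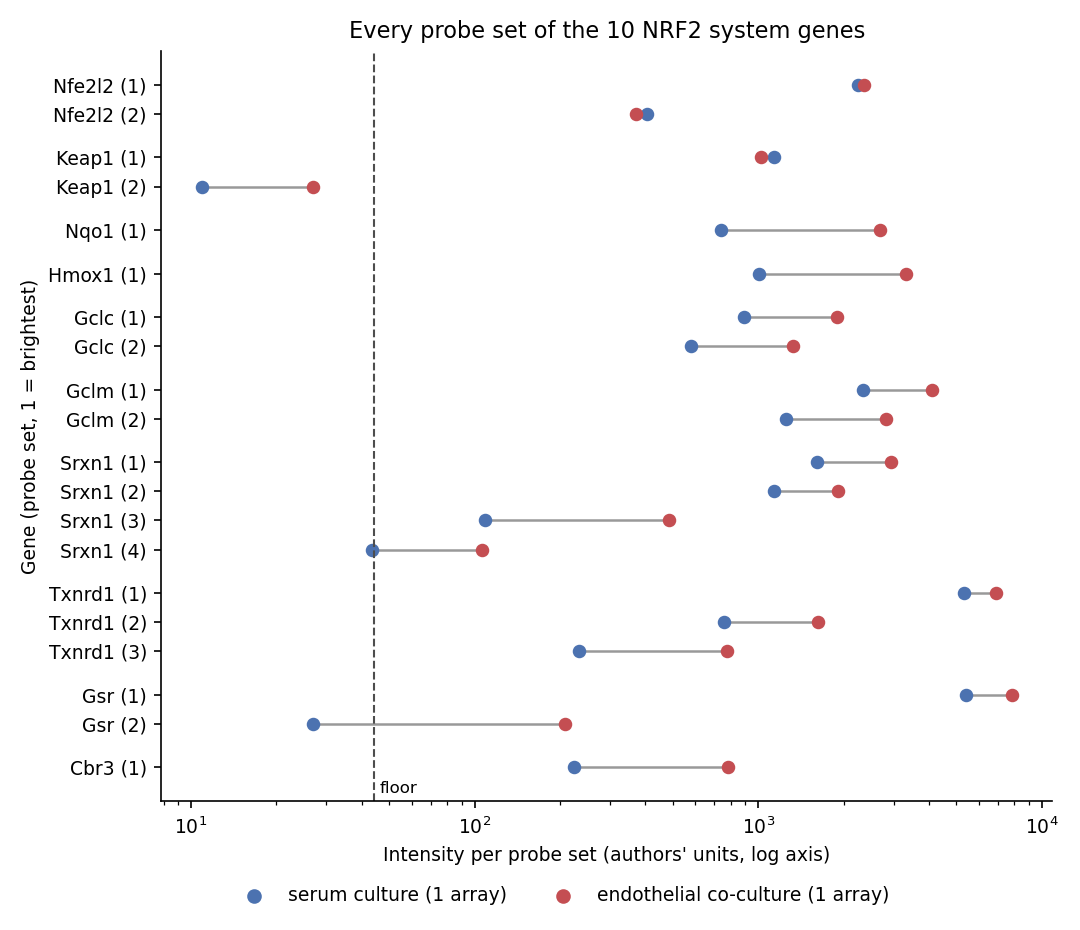
Intensity of each of the 20 probe sets on a log axis, with 1 point for the serum culture array (blue) and 1 for the endothelial co-culture array (red), and the floor of 44.3 as a dashed line; there are no error bars because each group has 1 array. The red point lies to the right of the blue in all 16 probe sets of the 8 target genes, and the points nearly coincide for the 3 measured probe sets of Nfe2l2 and Keap1.

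The regulator pair came first. Nfe2l2, the gene of NRF2 itself, had an intensity of 2240 in serum culture and 2357 in co-culture, a log2 difference of 0.07. Its second probe set gave 406 and 372, a difference of -0.13, so the 2 probe sets straddled equality. The sign of the brighter probe set turned to -0.12 when the arrays were scaled to the spikes. Keap1, the adaptor that delivers NRF2 to the ligase, had 1140 and 1019, a log2 difference of -0.16 that was below 0 in all 9 alternative settings. A second Keap1 probe set was below the floor on both arrays (10.9 and 26.9) and gives no ratio. All these differences were smaller than the SD between probe sets, and they held ranks 4641 and 6542 of 11560 from the highest down, near the middle of all measured genes.

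Nqo1 encodes a reductase that turns quinones into hydroquinones and is widely read as the reporter of NRF2 activity. Its only probe set had 739 in serum culture and 2679 in co-culture, a log2 difference of 1.86, the highest of the 10. The difference held rank 77 of 11560 measured genes. Nqo1 is also a known target of the aryl hydrocarbon receptor, whose best known target Cyp1a1 had 50.8 and 1783 and whose target Cyp1b1 had 1589 and 4590. The receptor gene Ahr had 687 and 551, a log2 difference of -0.32.

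Hmox1 encodes haem oxygenase 1, which opens the haem ring and releases iron, carbon monoxide and biliverdin. It had 1010 and 3326, a log2 difference of 1.72 that held rank 109. Hmox1 also answers to heat shock factor in some cells. Of 8 measured heat shock genes 0 were at least 2-fold higher by their brightest probe sets, a count that the 4.52% of all measured genes would also give. Hspa1b, the inducible HSP70, had a log2 difference of 0.84, with 1.77 and at least 2.06 by its other probe sets, and the part of heat shock in the difference of Hmox1 was not tested. Cbr3, a carbonyl reductase and a frequent member of NRF2 target lists, had 224 and 783, a difference of 1.80 that held rank 91. Nqo1, Hmox1 and Cbr3 each rest on 1 probe set, so no second probe set bears on them.

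Glutathione is made in a first, limiting step by glutamate-cysteine ligase, a pair of a catalytic subunit, Gclc, and a modifier subunit, Gclm. Gclc had 893 in serum culture and 1900 in co-culture by its brightest probe set, a log2 difference of 1.09. The second Gclc probe set gave 579 and 1321, a difference of 1.19. Both were past 2-fold, and they differed from each other by less than the SD between probe sets. Gclm had 2345 and 4110, a difference of 0.81, and 1255 and 2824 by its second probe set, a difference of 1.17. The probe sets of Gclc thus lay past 2-fold, and those of Gclm on either side of it.

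Glutathione reductase, Gsr, returns oxidised glutathione to its reduced form with NADPH. Its brightest probe set had 5403 and 7833, a log2 difference of 0.54, which is smaller than the SD of 0.57. A dim probe set read 26.9, below the floor, in serum culture and 208 in co-culture, at least 4.69-fold higher against the floor. The 2 Gsr probe sets thus disagree about the size and share the direction.

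Txnrd1 encodes the cytosolic thioredoxin reductase, a selenoprotein that keeps thioredoxin reduced. Its 3 probe sets had 5322 and 6870, 758 and 1619, and 233 and 775, in order of brightness. Their log2 differences were 0.37, 1.09 and 1.73, so the brightest probe set alone was within 2-fold. Its difference was smaller than the SD of 0.57. The identifiers of all 3 probe sets mark probe sequence shared between transcripts or genes. Those of the brightest probe sets of Gclc and Srxn1 do so too. Srxn1, the gene with 3 matches before its start, encodes sulfiredoxin, which revives over-oxidised peroxiredoxins. Its brightest probe set had 1605 and 2931, a difference of 0.87, and the next had 1140 and 1907, a difference of 0.74. The 2 dimmer ones had 109 and 484 (2.15) and 43.4 and 106 (at least 2.40-fold against the floor). All 4 Srxn1 probe sets were higher in co-culture, 2 of them past 2-fold.

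**Figure D2:**
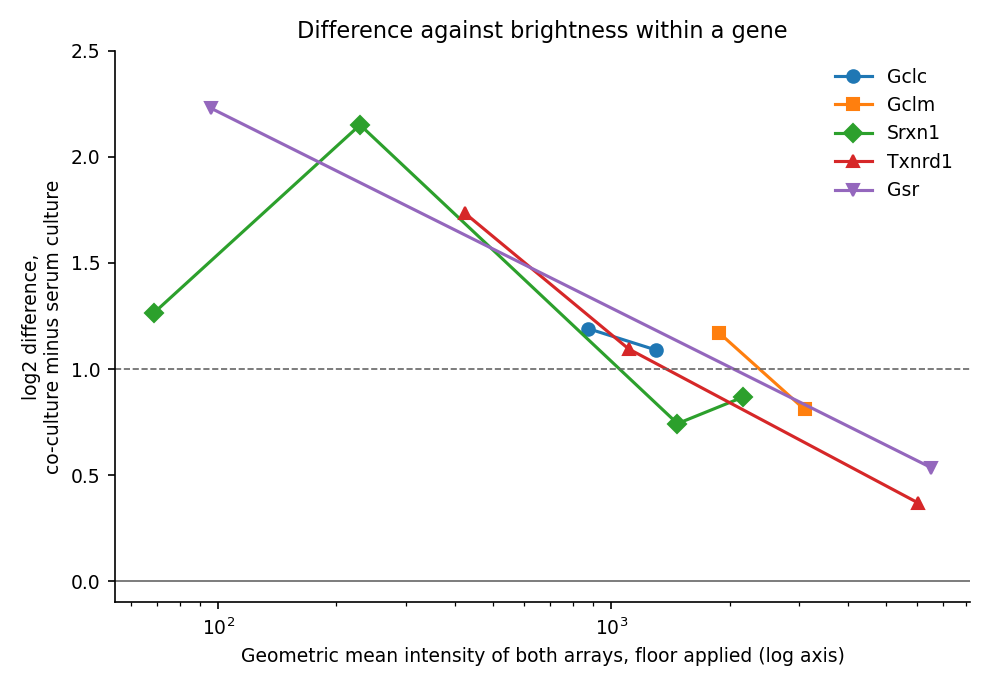
Log2 difference, co-culture minus serum culture, against the geometric mean intensity of both arrays for every probe set of the 5 target genes with over 1 measured probe set, with lines joining probe sets of a gene; each point is 1 probe set and has no error bar. In Gclc, Gclm, Txnrd1 and Gsr the brightest probe set has the lowest difference, and all points lie above 0.

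In 4 of the 5 target genes with over 1 measured probe set the brightest gave the lowest difference, the exception being Srxn1. Among all 2468 genes with over 1 measured probe set and a brightest one above 0, this held for 35.3%. Counting each gene by its brightest probe set therefore gives the smallest available ratio for Gclc, Gclm, Txnrd1 and Gsr. Over probe sets, 11 of the 16 of target genes were at least 2-fold higher, with log2 differences from 0.37 to 2.23 and a median of 1.18, and all 16 lay above 0. Of all measured probe sets 8.17% passed 2-fold upward, 8.05% downward, and 52.6% lay above 0, and of all measured genes 45.9% lay above 0 by their brightest probe set. Gclc was the only member with over 1 measured probe set and all of them at least 2-fold higher, as were 1.2% of all such genes. All 5 target genes with several measured probe sets had them all above 0, against 29.6% of such genes. These counts describe genes chosen on the same contrast. The 5′ control probe sets differed more between the arrays than the 3′ ones, by log2 differences of 1.23 against 0.43 for beta-actin, 0.29 against -0.14 for Gapdh and 1.11 against -0.28 for Tfrc. Where along the transcripts the members' probe sets lie was not used here, and the part of RNA length in their disagreement was not tested.

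With the mean over measured probe sets in place of the brightest, 7 of the 10 genes were at least 2-fold higher, all targets but Gclm (0.99), beside 4.55% of all measured genes. With the arrays scaled to the spikes 3 were, Nqo1, Hmox1 and Cbr3, beside 2.92% of all measured genes, and Gclc had a log2 difference of 0.90. The order of the differences ran Nqo1, Cbr3, Hmox1, Gclc, Srxn1, Gclm, Gsr, Txnrd1. If probe errors are independent, the SD of 0.57 for a single difference gives 0.81 for a gap between genes. The largest gap between neighbours, from Hmox1 to Gclc, was 0.63 and the others were at most 0.27, so the order of neighbours is not resolved.

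**Figure D3:**
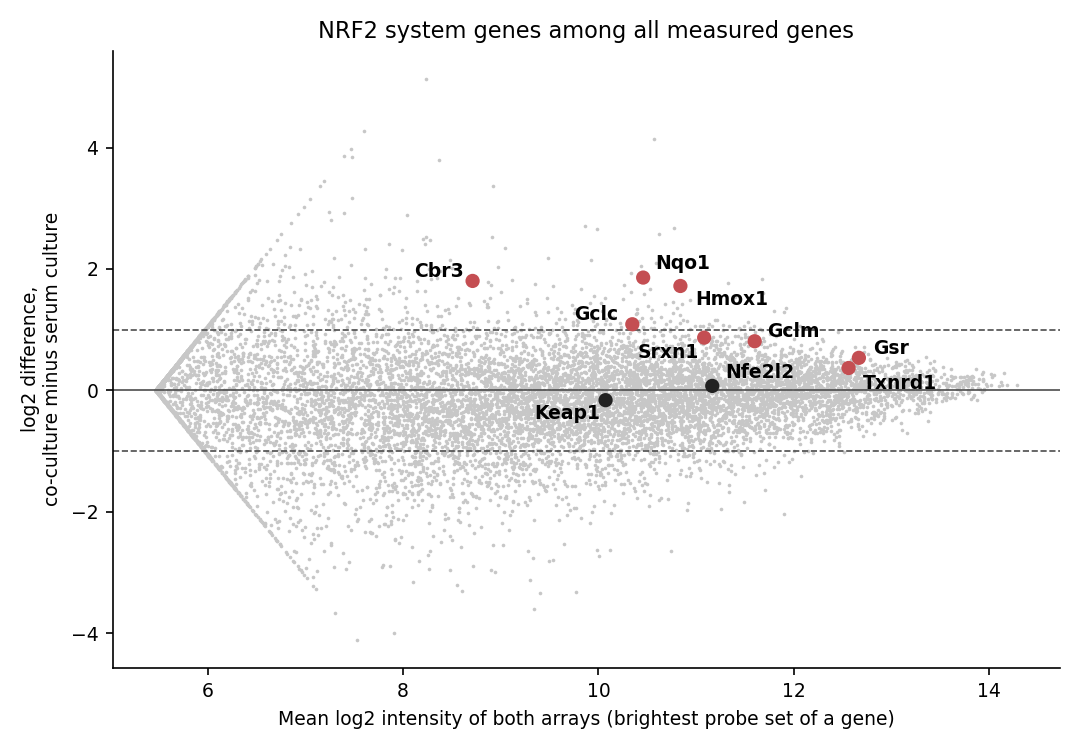
Log2 difference, co-culture minus serum culture, against mean log2 intensity of both arrays for the brightest probe set of each of 11560 measured genes (grey), with the 8 targets in red, Nfe2l2 and Keap1 in black and dashed lines at 2-fold; each point is 1 gene and has no error bar. Nqo1, Cbr3 and Hmox1 lie at the upper edge of the cloud, Gclc just past 2-fold, and Nfe2l2 and Keap1 inside it.

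**Figure D4:**
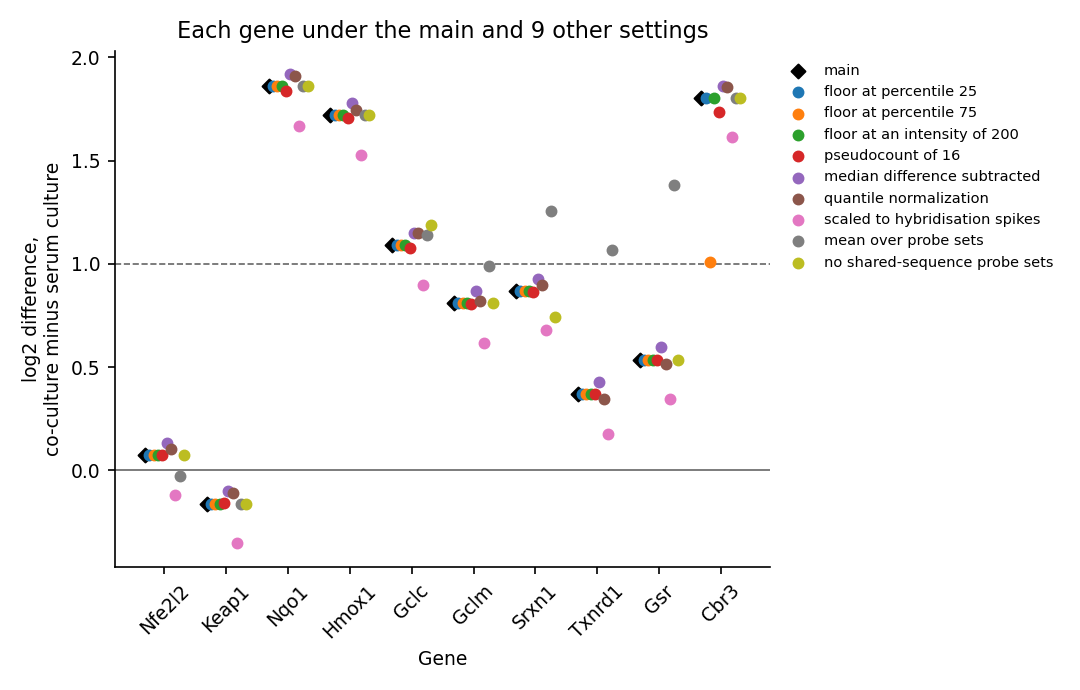
Log2 difference, co-culture minus serum culture, of each of the 10 genes in the main setting (black diamonds) and in 9 alternatives (coloured dots), with the dashed line at 2-fold; Txnrd1 lacks the setting without shared-sequence probe sets. The dots of the 8 targets stay above 0, and those of Nfe2l2 lie on both sides of it.

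Genes of the related lists, taken as a whole, lay near the background. These lists reach beyond the NRF2 pathway, to aryl hydrocarbon receptor, heat shock and ATF4 response genes. Over 159 measured genes of 12 related lists, the members left out, 7 passed 2-fold on the higher side (4.40%) and 16 on the lower side (10.1%), near the 4.52% and 9.97% of all measured genes. Their median log2 difference was -0.16. Counted by probe set, 7.79% of 321 were at least 2-fold higher and 7.17% lower, also near the background. Each list holds at most 22 measured genes, so a count of 0 higher is near what the 4.52% would give.

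**Figure D5:**
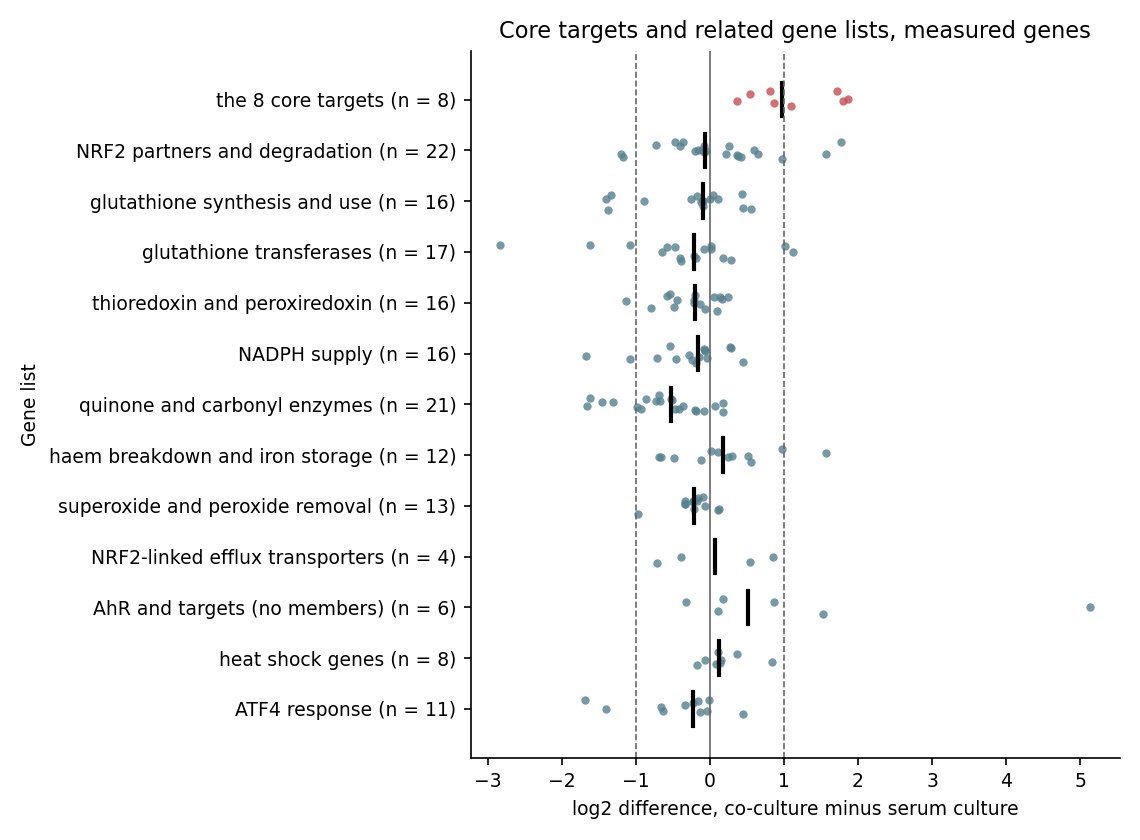
Log2 difference, co-culture minus serum culture, of each measured gene (dot) by its brightest probe set, for the 8 core targets (red) and 12 related lists with members left out (blue; 6 of the 8 measured aryl hydrocarbon receptor genes remain), with medians as black bars and 2-fold as dashed lines. The 8 targets lie from 0.37 to 1.86, and the medians of the lists, apart from the aryl hydrocarbon receptor list at 0.52, lie from -0.52 to 0.17.

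NRF2's partners, rivals and the machinery that destroys it had 2 of 22 measured genes higher and 2 lower, with a median of -0.07. Cul3, the scaffold of the ligase, had 5286 and 5076 (a log2 difference of -0.06, and 0.29 to 0.57 by its other probe sets). The small MAF partners Mafg and Mafk had -0.10 (0.90 by another probe set) and 0.22, and Maff -0.41. Bach1, a repressor that competes for the same elements, had 2379 and 1444 (-0.72, and -0.29 by its other probe set). Bach2, its lymphoid relative, was 2.29-fold lower, while another probe set gave 0.89 and the dimmest, below the floor in co-culture, was at least 1.38-fold lower. Sqstm1, the autophagy receptor p62 that can sequester KEAP1 and is itself an NRF2 target, had 4720 and 4451 (-0.08) by its brightest probe set. A dimmer Sqstm1 probe set had 138 and 430, 3.13-fold higher. The related factor Nfe2l1 had -0.16. The genes past 2-fold in this list were Cdkn1a, the p21 cell cycle inhibitor that can stabilise NRF2 (3.40-fold higher), Palb2, a KEAP1-binding DNA repair protein (2.97-fold higher), Rxra, a nuclear receptor that can repress NRF2 (2.26-fold lower), and Bach2.

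In the rest of glutathione metabolism 0 of 16 measured genes were at least 2-fold higher and 3 lower, with a median of -0.09. Gss, the second enzyme of glutathione synthesis, had 590 and 555 (-0.09). Slc7a11, the cystine importer, had 440 and 599 (0.45) by its brightest probe set and 52.9 and 339 (2.68) by the other, so its size is unsettled. The lipid peroxide reductase Gpx4 had 0.43. The 3 lower genes were Chac1, which degrades glutathione (2.64-fold), the endoplasmic reticulum peroxidase Gpx8 (2.59-fold) and the glyoxalase Hagh (2.53-fold, and lower by all 3 probe sets).

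Of 17 measured glutathione transferases, which couple glutathione to foreign compounds, 2 were higher and 3 lower, with a median of -0.22. Gstk1 was 7.10-fold lower (465 to 65.5), Gsto2 at least 3.06-fold and Gstz1 2.11-fold, whereas Gstcd was 2.17-fold higher. Of 16 thioredoxin, peroxiredoxin and sestrin genes 0 were higher and 1 lower, with a median of -0.20. Txn1, thioredoxin itself and the substrate of Txnrd1, had 14871 and 16674 (0.17). Sesn3 was 2.20-fold lower by its brightest probe set and had 0.03 by the other.

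Of 16 NADPH-supplying genes 0 were higher and 2 lower, with a median of -0.17. Me1, malic enzyme, had 2856 and 3901 (0.45, and 0.64 by its other probe set). Idh2, mitochondrial isocitrate dehydrogenase, was 3.19-fold lower, but its other probe set was 3.63-fold higher, so its direction is not settled. Aldh1l2 was 2.12-fold lower. Of 21 other quinone, carbonyl and aldehyde enzymes 0 were higher and 4 lower, beside 4.52% and 9.97% of all measured genes. Their median of -0.52 was the lowest of the 12 lists. Nqo2, the paralogue of Nqo1, had 474 and 150, 3.16-fold lower, with all 3 measured probe sets below 0 (-0.65 to -1.66). Cbr1, the close relative of Cbr3, had 1103 and 972 (-0.18), and Cbr4 was 2.47-fold lower. Akr1c13 and Akr1c14, aldo-keto reductases, were 3.08-fold and at least 2.75-fold lower.

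Of 12 measured genes of haem breakdown and iron storage 1 was higher and 0 lower, with a median of 0.17. Slc40a1, the iron exporter ferroportin, was 2.97-fold higher (97.1 to 288), and at least 1.34-fold by another probe set that was below the floor in serum culture (3.13 and 59.3). Fth1, the ferritin heavy chain, had 14150 and 17435 (0.30) and Blvrb, biliverdin reductase B, 0.10. In superoxide and peroxide removal 0 of 13 genes passed 2-fold in either direction, with a median of -0.22, and the largest difference was that of Oxr1 (-0.97, and 0.53 by another probe set), with Selenon at -0.34. Of 4 measured efflux transporters 0 passed 2-fold (median 0.07), with Abcg2 at 0.85 and Abcc5 at -0.72 (up to 1.75 by another probe set). The aryl hydrocarbon receptor list, which holds Nqo1 and Nfe2l2, had 3 of 8 measured genes higher and 0 lower, Cyp1a1, Nqo1 and Cyp1b1, with a median of 0.52. Without Nqo1 and Nfe2l2, which were chosen as members, 2 of 6 were higher, beside 4.52% of all measured genes. Heat shock genes had a median of 0.12 with 0 of 8 past 2-fold. Of 11 ATF4 response genes 0 were higher and 2 lower, with a median of -0.22, namely Ddit3 (3.23-fold, and 0.20 by another probe set) and Chac1. Prdx1, G6pdx and Ftl1 are not analysed here.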

How the data were processed

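RNA of 2 cultures was column-purified, amplified as cRNA with a biotin label and read on arrays of 1 colour, according to the protocols in the labels. The deposited table holds the authors' linear intensity for each of 45101 probe sets; how the authors corrected background and normalized is not given in the sources here. Names came from the platform annotation and, by gene number, from RefSeq (GRCm38.p6): 34958 had 1 symbol and 932 several, and 9211 had none.

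Intensities below the pooled median of both arrays (44.3) were set to it, and log2 was taken. A gene was represented by its brightest probe set (mean log2 of both arrays). The members and gene lists were chosen with earlier results of these data known. Named were all members and a fixed set of related genes. From each list up to 4 genes past 2-fold were named, or the 2 with the largest difference where none passed. A few further genes (Cdh5, Kdr, Pecam1, Egfl7, Klf1, Ptprc, Tiparp and Ahrr) were named after their values were seen. Alternatives were floors at percentiles 25 and 75 and at 200, a pseudocount of 16, median subtraction, quantile normalization, spike scaling, the mean over probe sets, and no shared-sequence probe sets. Steps were tested on simulated data (Python 3.11.15, pandas 2.3.3, numpy 2.4.6).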

Additional observations from a re-analysis of the deposited data

How the results depend on the processing

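Each member's log2 difference kept its direction in every alternative that gave a value, except that of Nfe2l2, which ran from -0.12 to 0.13. Nqo1 (1.67 to 1.92), Hmox1 (1.53 to 1.78) and Cbr3 (1.01 to 1.86) were at least 2-fold higher in all 9 alternatives, and Gclc in 8 (0.90 to 1.19). The low value of Cbr3 follows from the floor at percentile 75, an intensity of 389, which lies above its serum value. Txnrd1 ran from 0.18 to 1.07 and Gsr from 0.34 to 1.38, and both were highest with the mean over probe sets. The count of members at least 2-fold higher was 4 and became 7 with the mean over probe sets and 3 with spike scaling. Over all measured genes 523 were higher and 1152 lower. With the floor at percentile 25 they were 2029 and 1599, so that the share higher among genes past 2-fold was 55.9% against 31.2%. The higher count was 853 with the pseudocount (share 41.5%) and 328 with spike scaling (17.2%), and counts were 143 higher and 397 lower with the floor at percentile 75, and 218 and 656 with the floor at 200. In the related lists 7 higher and 16 lower genes became 16 higher with the floor at percentile 25, 3 higher and 10 lower at percentile 75, and 3 higher at 200. A higher floor leaves fewer genes measured. Idh2 reversed, to 0.092 with the mean over probe sets and 1.86 without shared-sequence probe sets. No setting leaving out a replicate and no paired analysis was possible because each group has 1 array. The number of arrays limits all of these values.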
